A study of Mus musculus with 2 samples.

Results

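The PARP family genes and Dtx3l were examined in a mouse macrophage-like cell line, RAW246.7 in the labels' spelling, after mechanical stretch. The members were 10 genes found by gene symbol among 55414 genes: Parp1, Parp2, Parp3, Parp8, Parp9, Parp10, Parp11, Parp12, Parp14 and Dtx3l. Polyadenylated RNA was sequenced from stretched cells, loaded at 20% elongation for 24 h, and from control cells kept 24 h under loading called normal. How much strain the normal condition carried is not in the labels, nor is any genotype or agent, nor whether loading was cyclic or static. They also give synovial membrane as the tissue, although the named line is cultured. With 1 library per group, variation between cultures was not measured and no test of the condition could be made.

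PARP enzymes take NAD and attach ADP-ribose to proteins or nucleic acids. Parp1 and Parp2 build long poly(ADP-ribose) chains at broken DNA and recruit repair proteins, whereas most other family members add a single ADP-ribose or none. Several of these single-unit or inactive members carry macrodomains, which bind ADP-ribose, or zinc fingers, and are known in macrophages as interferon-inducible antiviral genes. Dtx3l is an E3 ubiquitin ligase that forms a complex with Parp9.

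The stretched library held 13391645 estimated counts and the control library 14769100. The log2 difference used here is the log2 ratio of depth-scaled counts, stretched over control, with a 95% counting interval that covers counting error only. A gene was called higher or lower at a total of 20 counts or more, a difference of 2-fold or more, and an interval lying wholly on one side of 0. Of 12 macrophage marker genes, 11 had at least 20 counts over both libraries. Csf1r, the receptor of the macrophage growth factor, stood at 374 FPKM in stretched cells and 333 FPKM in control cells, where FPKM counts fragments by transcript length and library depth. Over these 11 markers 0 were called, with a median log2 difference of 0.07 and values from -0.41 at Fcgr1 to 0.75 at Lyz2; Mertk had 0 counts in stretched and 3 in control. Of markers of other cells, 9 fibroblast genes summed to 23 counts in stretched and 19 in control, with 5 and 6 of them at 0, and 6 endothelial genes to 43 and 39, with 2 and 1 at 0. The 5 T cell markers found summed to 93 counts in stretched, 87 of them Lck, and 138 in control, 133 of them Lck; Cd8a was at 0 in both. The 6 B cell markers summed to 2062 counts in stretched and 6433 in control, of which Ighm gave 2048 and 6422, while Ms4a1 was at 0 in both. Ighm, an immunoglobulin heavy chain gene, was called lower (log2 difference -1.52, interval -1.60 to -1.45), at 86.6 FPKM in stretched and 238 FPKM in control, above the level of every member in both libraries. The part of these markers in the differences below was not tested. In bulk RNA, fewer cells of a type and less RNA per cell cannot be told apart.

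The members ranged widely in size of difference, with no clear break between those called and those not. Of 9 members with enough counts, Parp14, Parp10 and Parp12 were higher, 0 were lower and 6 met neither side. Across all 12772 genes with enough counts, 3.12% were called higher and 1.94% lower. The median over the 9 members was 0.50, against -0.0014 over all genes. Intervals lay wholly above 0 for 8 members, as they did for 22.9% of all genes. With DESeq2 size factors the interval of Parp1 ran from -0.03 to 0.10 and held 0, which left 7. The matching share over all genes was not recalculated with these factors.

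**Figure D1:**
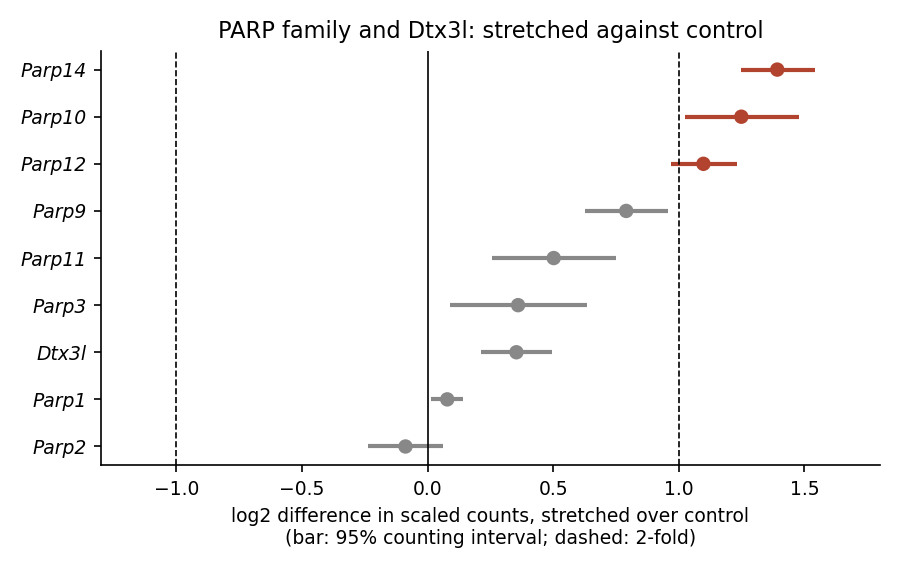
Log2 difference in scaled counts, stretched over control, for the 9 members with at least 20 counts; bars are 95% counting intervals, dashed lines mark 2-fold, and red marks genes called higher. Parp14, Parp10 and Parp12 lie beyond the 2-fold line at 1.39, 1.25 and 1.10, and Parp2 alone lies below 0.

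Parp14, a large macrodomain protein that adds single ADP-ribose units and is known as a partner of STAT6, had the largest difference among the 9. The gene (ENSMUSG00000034422, chromosome 16, 35653244 to 35691914, minus strand, GRCm39) had 1285 counts in stretched cells and 534 in control cells. It was 2.62-fold higher, a log2 difference of 1.39 (interval 1.25 to 1.54), and 206 of the 12772 genes had a difference at least as large. Its level was 11.9 FPKM in stretched and 4.43 FPKM in control, where it was the lowest of the 9. A single coding transcript of 7417 bases took 1278 and 526 of these counts, so the difference was carried by the full coding form.

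Parp12, a zinc finger protein that adds single ADP-ribose units and restricts several viruses, lies on chromosome 6 (ENSMUSG00000038507, 39063344 to 39095283, minus strand, GRCm39). It had 1392 counts in stretched cells and 709 in control cells. It was 2.14-fold higher (log2 difference 1.10, interval 0.97 to 1.23), so the lower end of its interval fell just under 2-fold. By level it stood behind Parp1 alone in stretched cells, at 31.1 FPKM, and behind Parp1 and Parp2 in control cells, at 13.6 FPKM. Its annotated retained-intron transcript, which keeps an intron and is not expected to give the full protein, had 31 counts in stretched and 5 in control, or 2.23% (Wilson 95% interval 1.57% to 3.14%) and 0.705% (0.302% to 1.64%) of the gene's counts. These intervals overlap. By its own counts the retained-intron transcript had a log2 difference of 2.64 (interval 1.38 to 4.48), wholly above that of the coding transcript, 1.08 (interval 0.94 to 1.21). Both contrasts rest on the authors' estimated division of counts between transcripts, whose error the intervals do not cover.

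Parp10, which adds single ADP-ribose units and was first known as a MYC-interacting protein, lies on chromosome 15 (ENSMUSG00000063268, 76115374 to 76127641, minus strand, GRCm39). It had 519 counts in stretched cells and 238 in control cells. It was 2.38-fold higher (log2 difference 1.25, interval 1.03 to 1.48), with 11.6 FPKM in stretched and 4.51 FPKM in control. Its transcripts differed in opposite directions. The coding transcript of 3367 bases had 484 counts in stretched and 156 in control, whereas a retained-intron transcript of 3407 bases had 26 and 79. The coding transcript was thus 3.38-fold higher (log2 difference 1.76, interval 1.50 to 2.03), while the retained-intron form had a log2 difference of -1.46 (interval -2.18 to -0.82). Retained-intron transcripts made up 6.55% of Parp10 counts in stretched (Wilson 95% interval 4.73% to 9.02%) and 34.0% in control (28.3% to 40.3%). Among 5424 genes with a retained-intron model and at least 200 counts in each library, 68, or 1.25%, had a change in that share at least as large in size as that of Parp10, -27.5 percentage points, and the median absolute change was 0.63 points. These genes were not matched to Parp10 for depth or for retained-intron share, and its 238 control counts lie near the minimum of 200. The division between transcripts is the authors' estimate.

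Parp10 is uncertain at the gene level because its model overlaps that of Plec, the cytoskeletal linker gene plectin, by 1401 bases on the same strand. Plec had 7147 counts in stretched and 5523 in control, a log2 difference of 0.50. With Parp10 and Plec added together the log2 difference was 0.54 (interval 0.49 to 0.59), which does not meet the 2-fold rule, and most of that total came from Plec. How reads in the shared stretch were divided was not tested.

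**Figure D2:**
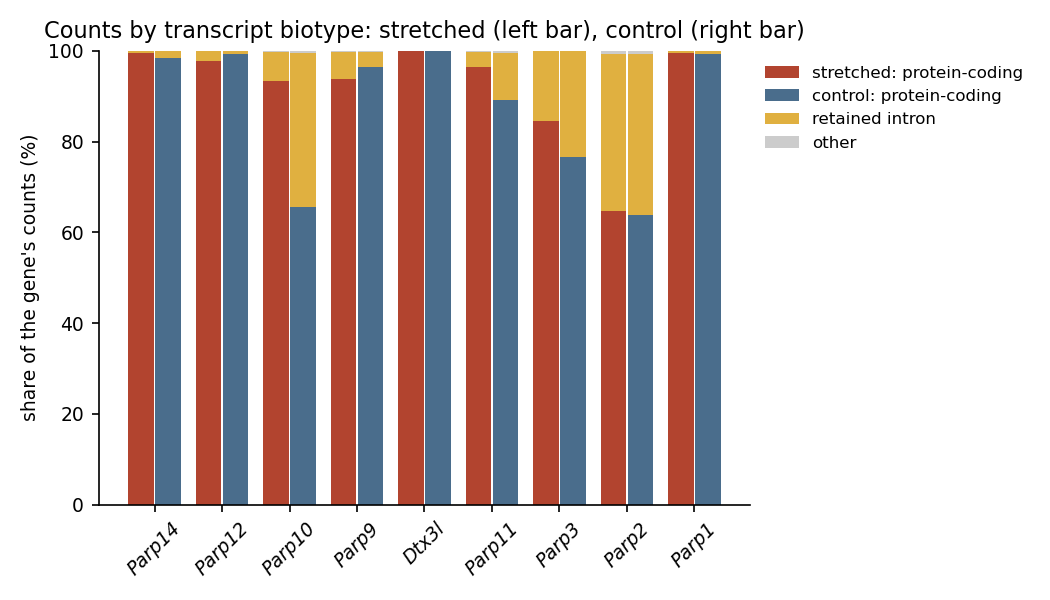
Share of each gene's estimated counts, in percent, on protein-coding, retained-intron and other annotated transcripts, stretched on the left and control on the right of each pair, 1 library each. The retained-intron share of Parp10 is 6.55% in stretched and 34.0% in control, and that of Parp2 is 34.7% and 35.6%.

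Parp9 and Dtx3l, whose proteins work as a pair, differed to unequal degrees. Parp9, a macrodomain protein with little or no catalytic activity of its own, had 782 counts in stretched cells and 493 in control cells. Its log2 difference was 0.79 (interval 0.63 to 0.96), or 1.73-fold, under the 2-fold rule with an interval that ended below it. Dtx3l had 889 counts in stretched and 759 in control, a log2 difference of 0.35 (interval 0.21 to 0.50). The intervals of these genes do not overlap. On the FPKM scale Parp9 stood at 15.6 in stretched and 8.85 in control, and Dtx3l at 11.6 and 8.78. The ratio of Dtx3l to Parp9 levels was therefore 0.744 in stretched and 0.992 in control, with no measure of how this ratio varies between cultures.

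Parp14, Dtx3l and Parp9 lie next to each other on chromosome 16. Dtx3l (35746881 to 35759521, minus strand, GRCm39) and Parp9 (35758840 to 35792975, plus strand) are arranged head to head and overlap by 682 bases on opposite strands. Parp14 lies 54967 bases from Dtx3l. The library kit keeps strand. The strand setting of the counting is unknown, so reads from the shared stretch cannot be assigned with certainty. The next gene with at least 20 counts after Parp9, Kpna1, a nuclear import receptor, had 1845 counts in stretched and 1818 in control (log2 difference 0.15). On the far side of Parp14, Hspbap1 had 71 counts in stretched and 53 in control (0.54, interval 0.01 to 1.09). Over all members, the nearest such genes on each side that do not overlap a member comprised 16 distinct genes that were not members. Of these 0 were higher and 0 lower, where 5.06% of all genes met the rule in either direction. They lay from 1825 bases (Tbxas1, from Parp12) to 1752899 bases (Gm49395, from Parp8) away, so not all were close by. Their differences ran from -0.90 at Nrbp2, on 13 and 27 counts, to 0.54 at Hspbap1.

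**Figure D3:**
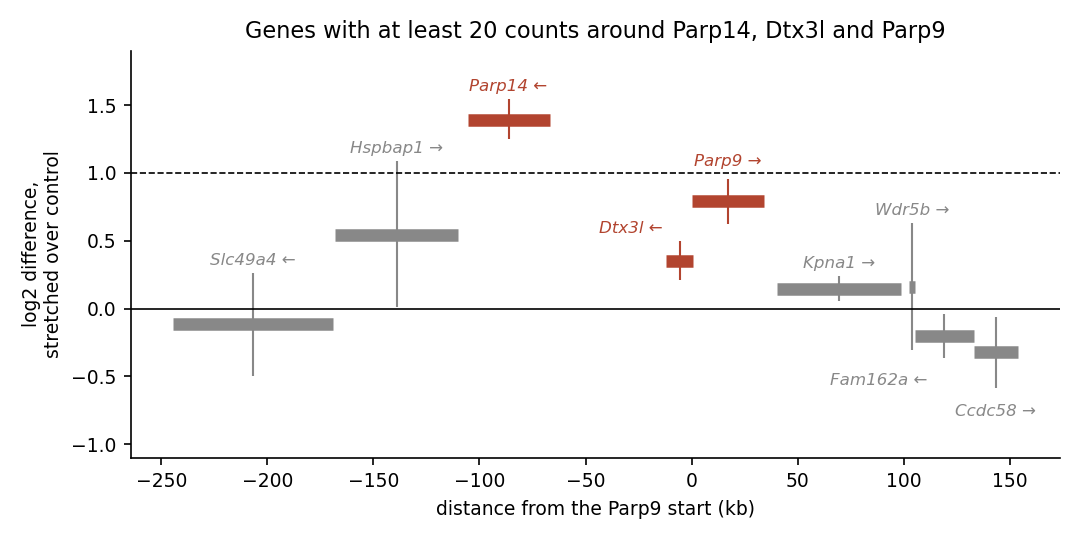
Log2 difference, stretched over control, of genes with at least 20 counts around Parp14, Dtx3l and Parp9, against distance in kb from the Parp9 start; thick bars span each gene, thin bars are 95% counting intervals, arrows give the strand and the dashed line marks 2-fold higher. Parp14 stands at 1.39, Parp9 at 0.79 and Dtx3l at 0.35, while Kpna1 and Hspbap1 on the flanks are at 0.15 and 0.54.

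Parp11, a small enzyme that adds single ADP-ribose units and in human cells acts on the turnover of the interferon receptor subunit IFNAR1, lies on chromosome 6 (ENSMUSG00000037997, 127423803 to 127471224, plus strand, GRCm39). It had 313 counts in stretched cells and 241 in control cells. Its log2 difference was 0.50 (interval 0.26 to 0.75), which met neither side of the rule. The main coding transcript of 3746 bases had 229 counts in stretched and 207 in control (0.27, interval -0.01 to 0.55). A second coding transcript of 3414 bases had 61 counts in stretched and 0 in control, at least 22.2-fold higher against a floor of 3 counts. The bound does not allow for counting error in the 61 counts, and it depends on how coverage was divided between similar transcripts.

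Promoter windows from RefSeq (GRCm38.p6, 250 bases before to 50 after the start) were at hand for 7 of the 10 members, as 8 windows, with none for Parp9, Parp10 and Parp14. They were searched on both strands for the core of the interferon-stimulated response element, which is GAAA, any 2 bases and GAAA again, and TTCNNNGAA, the core of the gamma-activated site that STAT proteins bind. Parp11 was the sole member with a match, and it had both in 1 of its 2 windows. The first match begins 44 bases and the second 37 bases before the start, so they overlap. Of all 32851 windows, 3.44% hold the first motif and 8.30% the second. The stretches from 90 to 11 bases before the start are shown for Parp11, with the joined matches in capitals, beside Parp12, which was called higher and has no match, and Parp1, which differed little and has none. They lie at chr6:127446750-127446829 on the plus strand, chr6:39118360-39118439 on the minus strand and chr1:180568801-180568880 on the plus strand, in that order.
Parp11: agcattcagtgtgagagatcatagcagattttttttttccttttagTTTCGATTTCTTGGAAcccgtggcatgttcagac
Parp12: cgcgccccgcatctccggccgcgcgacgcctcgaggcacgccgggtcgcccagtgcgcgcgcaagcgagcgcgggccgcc
Parp1: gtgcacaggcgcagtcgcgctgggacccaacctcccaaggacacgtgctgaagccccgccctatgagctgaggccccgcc
A match describes these letters alone and does not show that a factor binds there.

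None of the DNA repair members, Parp1, Parp2 and Parp3, met the 2-fold rule. Parp1, the main nuclear source of poly(ADP-ribose) (ENSMUSG00000026496, chromosome 1, 180396489 to 180428819, plus strand), had 4046 counts in stretched cells and 4181 in control cells, a log2 difference of 0.08 (interval 0.02 to 0.14). It was the highest member per length, at 73.0 FPKM in stretched and 67.5 FPKM in control. Parp2, its partner at DNA breaks (ENSMUSG00000036023, chromosome 14, 51045298 to 51058758, plus strand), had 695 counts in stretched and 806 in control (-0.09, interval -0.24 to 0.06), the one member with enough counts whose interval held 0. About as much of its signal came from retained-intron transcripts in both libraries, 34.7% in stretched and 35.6% in control. Parp3, which acts in the joining of double-strand breaks (ENSMUSG00000023249, chromosome 9, 106347521 to 106354148, minus strand), had 246 counts in stretched and 209 in control (0.36, interval 0.09 to 0.63).

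Within Parp3, a coding transcript of 2962 bases had 82 counts in stretched and 25 in control, a log2 difference of 1.82 (interval 1.18 to 2.55), whereas one of 2495 bases had 117 and 128. By the authors' division of counts, the gene total therefore mixed transcripts that differed unequally. The interval does not cover error in that division. Parp3 also overlaps Rrp9, a gene for a ribosomal RNA processing factor, by 987 bases on the opposite strand, and Rrp9 had 624 counts in stretched and 590 in control. Parp8, a family member that adds single ADP-ribose units and is less well described (ENSMUSG00000021725, chromosome 13, 116991356 to 117162073, minus strand), had 0 counts in stretched cells and 7 in control cells, too few for the count filter. Against a floor of 3 counts in stretched it was 2.14-fold lower, with no allowance for counting error in the 7 control counts. The upper end of its counting interval was -0.40. With counts rebuilt from FPKM without rounding up, that end was 0.25, so the interval held 0.

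**Figure D4:**
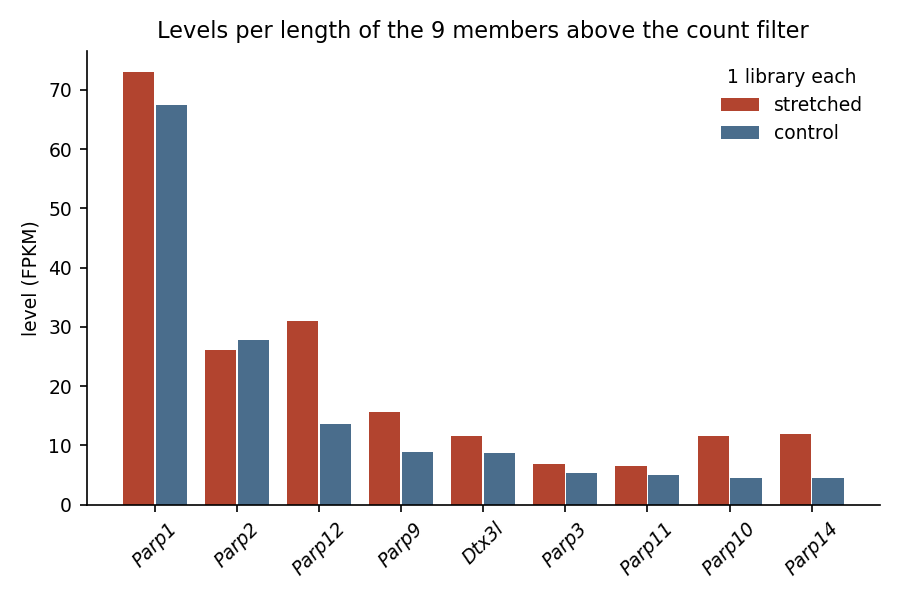
Level in FPKM of the 9 members with at least 20 counts, stretched on the left and control on the right, 1 library each, ordered by the control level. Parp1 is highest in both, at 73.0 and 67.5 FPKM, and Parp14 and Parp10, lowest in control, reach 11.9 and 11.6 FPKM in stretched.

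The summed level of the 10 members was 194 FPKM in stretched cells and 146 FPKM in control cells. Parp1 made up 37.6% of that sum in stretched and 46.3% in control. Parp9, Parp10, Parp12 and Parp14 together made up 36.1% in stretched and 21.5% in control, or 70.2 and 31.4 FPKM. These are the members with the highest log2 differences, so their larger share in stretched follows from the grouping and is no separate result. Parp1, Parp2 and Parp3 summed to 106 FPKM in stretched and 101 FPKM in control. The order of levels also differed. In stretched cells it ran Parp1, Parp12, Parp2, Parp9, Parp14, Dtx3l, Parp10, Parp3, Parp11 and Parp8, and in control cells Parp1, Parp2, Parp12, Parp9, Dtx3l, Parp3, Parp11, Parp10, Parp14 and Parp8. Neighbours such as Parp14, Dtx3l and Parp10 in stretched cells, between 11.6 and 11.9 FPKM, cannot be ranked without replicates.

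In the authors' deposited table, 3 members are marked up, Parp10, Parp12 and Parp14, and 1 is marked down, Parp8, where 2.18% of its 23250 genes are marked up and 1.55% down. The log2 fold change in the authors' deposited table is 1.39 for Parp14. It is -5.77 in the authors' deposited table for Parp8, on 0 counts in stretched and 7 in control.

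The remaining PARP genes did not meet the rule. Of 7 with enough counts, 0 were higher and 0 lower, with a median log2 difference of -0.01. Because 5.06% of all genes met the rule in either direction, 0 called does not set so short a list apart. The same holds for the lists below. Zc3hav1, which encodes the antiviral zinc finger protein ZAP, also named PARP13, had 3802 counts in stretched and 4923 in control (-0.25, interval -0.31 to -0.19). Parp16, a family member of the endoplasmic reticulum membrane, had 80 and 113 counts (-0.37, interval -0.80 to 0.05).

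Genes that remove or read ADP-ribose likewise did not meet the rule. Of 8 removal genes, 0 met the rule in either direction (median -0.03). Nudt16, which cleaves ADP-ribose chains on proteins, stood at 0.35 and Adprh, which removes ADP-ribose from arginine, at 0.19. Of 6 readers with enough counts 0 met the rule (median 0.02), with Chd1l, a chromatin remodeller activated by poly(ADP-ribose), at -0.49 and Gdap2 at -0.16. Of 13 genes for the Parp1 cofactor Hpf1 and single-strand break repair 0 met it (median -0.11), with the glycosylase gene Ogg1 at -0.26. The 4 other Deltex ubiquitin ligase genes had 0 called and a median of 0.19, with Dtx3 at 0.48 (interval 0.33 to 0.63) and Dtx1 at -0.48 on 30 and 46 counts.

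For the NAD that PARPs consume, 1 of 11 synthesis genes was lower and 0 were higher (median -0.10). The lower gene was Haao, an enzyme of NAD synthesis from tryptophan, on 9 counts in stretched and 24 in control (-1.24, interval -2.58 to -0.13). Its call was lost on the scale of log2(FPKM + 1) and with a prior of 5 counts. Kmo, of the same route, had 38 and 76 counts (-0.87) and was not called. Of 9 other NAD consumers 0 were called (median -0.04), with the deacylase genes Sirt1 at -0.49 and Sirt5 at -0.47.

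Of 5 genes of STAT6 and interleukin 4 signalling with enough counts 0 were called (median -0.03). Jak3, the kinase bound to the common cytokine receptor chain, stood at -0.54 and the receptor gene Il4ra at -0.35, on 63 and 88 counts.

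**Figure D5:**
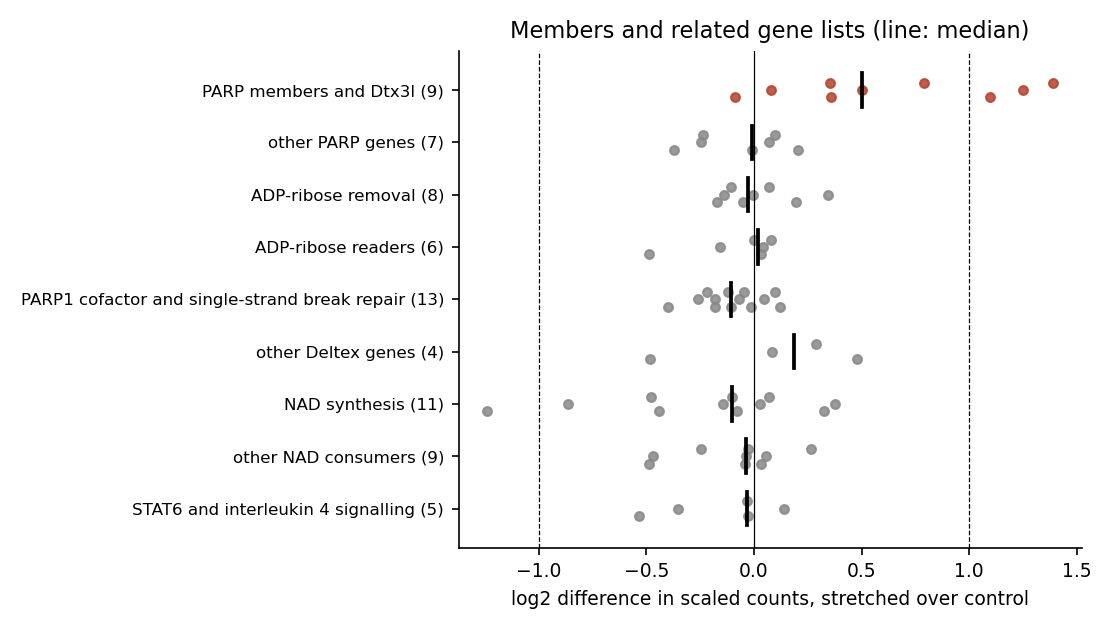
Log2 difference in scaled counts, stretched over control, of each gene with at least 20 counts, for the 9 members in red and 8 related gene lists in grey; black lines are medians, dashed lines mark 2-fold and the number of genes is in brackets. The members' median is 0.50, while those of the other lists lie between -0.11 and 0.19.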

How the data were processed

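Per the submitters' processing notes, StringTie and the genome build GRCm39 were used. Versions, the aligner and the strand setting were not given in these sources. For each library, gene and transcript were given as an estimated count and as FPKM by the authors. In the deposited files, 99.98% of transcripts with counts and a gene identifier in each library fitted FPKM times length times 1 constant, rounded up. The tolerance was 0.05 counts on either side of the range that rounding up allows, and the constant was taken from the same counts. The authors' table gives a log2 fold change and a p-value per gene; its p-values are not used here because 1 library per group does not measure variation between cultures. Gene counts were scaled on the whole table by TMM factors (edgeR 4.0.16, R 4.3.3), 1.01 for stretched and 0.995 for control. Log2 differences use a prior of 0.5 counts, with exact conditional binomial 95% intervals (scipy 1.17.1). Intervals and the floor of 3 counts cover counting error alone: without molecular identifiers, PCR copies cannot be recognised. The calculation was run on simulated counts that varied by counting error alone, as the intervals assume. That run cannot show how the intervals perform on estimated counts or between cultures. Alternatives used DESeq2 1.42.0 size factors among others. Members and gene lists were chosen with earlier results of these data known. Of 127 list entries, 126 matched a symbol. Beyond the members and their neighbours, each list's called genes and the 2 with the largest absolute differences are named, apart from some genes and 1 list that are not reported here. The catalytic residues planned for comparison are not reported here.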

Additional observations from a re-analysis of the deposited data

How the results depend on the processing

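Every value rests on 1 library per group, so depth limits it only through counting error and variation between cultures is not measured. Of 90 recalculated member differences, 86 kept their call and stayed within the reported interval. Several of the 90 could not move, so this count overstates how far the values were tested. Dropping the count filter changes no log2 difference, and summing overlapping models changes only members with such an overlap. The FPKM settings reused the main interval, and the interval of Parp8 has no lower end. Parp10 reached 1.76 on protein-coding transcripts alone and 0.54 with same-strand overlapping models summed, where its call was lost because Plec supplied most counts. Parp8 counted as lower with no count filter, giving 1 lower member, and stood at -0.13 on the scale of log2(FPKM + 1). With counts rebuilt without rounding up, the Parp8 interval ended at 0.25 and held 0. The calls of Parp12 and Parp14 held under all 9 alternatives, with log2 differences from 1.06 to 1.19 and from 1.25 to 1.41. Where recalculated, the median over members ran from 0.37 with FPKM and a pseudocount of 1 to 0.52 with library totals, against 0.50. The median over all genes was not recalculated. Over all genes, FPKM with a pseudocount of 1 gave 149 higher and 68 lower genes, counts rebuilt without rounding up gave 152 lower, and summed overlapping models gave 422 lower, against 398 higher and 248 lower. In the NAD synthesis list, 1 gene was higher with no count filter, and 0 were lower with a prior of 5 counts or with FPKM and a pseudocount of 1. No paired analysis was possible because the groups share 1 replicate number and hold 1 library each, and for the same reason no library could be left out.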
